A study of Danio rerio with 3 samples.

Results

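The comparison described here sets *gata2a*+ *runx1*+ cells of the adult zebrafish kidney against *gata2a*- *runx1*+ cells, with 1 RNA-seq library of each. Genes were taken where the deposited level reached 5 RPM (a gene's reads, scaled to a fixed total of reads counted on genes) in either library, which gave 8925 of 32057 genes. Each was ranked by the log2 ratio of RPM + 1, *gata2a*+ *runx1*+ over *gata2a*- *runx1*+, so that a positive value is higher in *gata2a*+ *runx1*+ cells. The genes just inside the limit had 5 RPM in their higher library, and the genes just outside it had 4.92 RPM. A gene is called higher or lower in *gata2a*+ *runx1*+ cells where this ratio is at least 2-fold, a log2 ratio of 1 or more in size.

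Both populations were sorted from kidneys of adult fish, labelled wild type, that carry 2 reporter transgenes, *gata2a:GFP* and *runx1:mCherry*. They share the mCherry signal and a gate on low side scatter, which leaves out granulocytic cells, and red cells had been lysed. They differ in GFP. The labels name no treatment for either, and how many fish went into a library is not given in the sources used here. The mCherry reporter runs from a mouse *Runx1* enhancer and does not fully follow the fish's own gene. Because there was 1 library per population, no difference has a replicate check and no p-value across genes is given. The intervals in parentheses after a fold are exact 95% intervals of the ratio of RPM, computed from the recovered reads. They cover the counting error of reads only and treat each read as independent. The cDNA was amplified by PCR without molecular identifiers, so several reads can be copies of the same molecule. The intervals can therefore be too narrow even for the counting of molecules.

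In zebrafish, the kidney marrow is the adult site of blood formation, in the place that bone marrow has in mammals. Hematopoietic stem cells (HSCs) there give rise to red cells, thrombocytes (the nucleated counterpart of platelets), myeloid cells and lymphocytes. GATA2 factors act in stem and progenitor cells, whereas GATA1 with KLF1 turns on the genes of the red cell, and GATA1 with FLI1 and NFE2 those of the thrombocyte lineage.

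The libraries were of near equal depth, 8123636 reads in *gata2a*+ *runx1*+ and 8205803 reads in *gata2a*- *runx1*+ cells, with a read for 16352 and 15366 genes. A floor of 3 reads stood at 0.369 RPM in *gata2a*+ *runx1*+ cells, with 0.366 RPM in *gata2a*- *runx1*+ cells. As a check of the labels, *gata2a* (ENSDARG00000059327) stood at 344 RPM in *gata2a*+ *runx1*+ cells, against 11.8 RPM in *gata2a*- *runx1*+ cells, 29.1-fold higher (23.8 to 36.1). *runx1* (ENSDARG00000087646) stayed under the limit of 5 RPM, with 39 reads in *gata2a*+ *runx1*+ and 29 reads in *gata2a*- *runx1*+ cells, a ratio of 1.36 (0.819 to 2.28), so no difference in *runx1* was detectable at this depth. Genes that most cells use, such as *cd63*, were listed at 0 in both libraries, so a level of 0 in both is given here only as listed and does not show that a gene was not expressed.

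Of the 8925 genes, 1380 (15.5%) were higher in *gata2a*+ *runx1*+ cells and 889 (9.96%) were lower, 25.4% in all, and the median log2 ratio was 0.05. The higher genes took 11.17% of the reads in *gata2a*+ *runx1*+ and 3.277% in *gata2a*- *runx1*+ cells. The lower genes took 1.711% of the reads in *gata2a*+ *runx1*+ and 5.514% in *gata2a*- *runx1*+ cells. The tails were uneven, with 142 genes at a log2 ratio of at least 3 and 76 genes at -3 or under. Among the 7229 genes with at least 5 RPM in both libraries, 678 (9.38%) were higher and 434 (6%) lower. The other genes entered through 1 library only and so were more often past 2-fold, 702 of the 980 that reached 5 RPM in *gata2a*+ *runx1*+ cells alone and 455 of the 716 that did so in *gata2a*- *runx1*+ cells alone. In sorted cells measured in bulk, fewer cells of a type and less RNA per cell cannot be told apart.

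**Figure D1:**
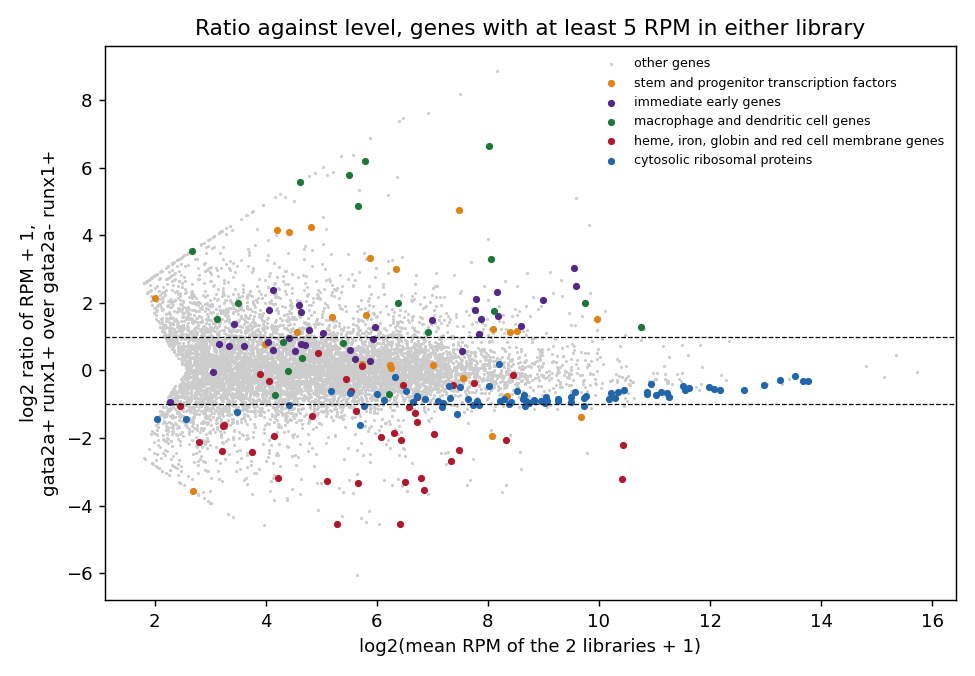
Log2 ratio of RPM + 1, *gata2a*+ *runx1*+ over *gata2a*- *runx1*+, plotted against the log2 of the mean RPM + 1 of the 2 libraries, for 8925 genes (grey) with 5 gene lists in colour and dashed lines at 2-fold. Heme, globin and red cell membrane genes lie mostly below the lower line, with *SLC4A1* at -3.20, whereas most immediate early genes lie above 0 and ribosomal protein genes form a narrow band with a median of -0.82.

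Transcription factors of stem and progenitor cells were mostly higher in *gata2a*+ *runx1*+ cells. Of 42 genes found for this list, 24 reached the limit, and 14 of these (58.3%) were higher and 3 (12.5%) lower, with a median log2 ratio of 1.15, beside 15.5%, 9.96% and 0.05 over all genes. The list holds *gata2a*, the gene of the sort, and without it 13 of 23 genes were higher and 3 lower, with a median of 1.13. Of the 24, 4 reached 5 RPM in *gata2a*+ *runx1*+ cells alone, *gfi1aa*, *ikzf2* and *MEIS2* among them, and 1 in *gata2a*- *runx1*+ cells alone. The limit fixed the direction of these genes. Among the 19 that reached it in both libraries, 10 were higher and 2 lower, with a median of 1.13. Over all genes with 5 RPM in both, 9.38% were higher and 6% lower. *gata2b* (ENSDARG00000009094), the second zebrafish GATA2 gene, which acts in hemogenic endothelium, was at 143 RPM in *gata2a*+ *runx1*+ cells, against 17.2 RPM in *gata2a*- *runx1*+ cells, 8.34-fold higher (6.996 to 10). The repressor genes of the GFI1 family stood further apart. *gfi1aa* (ENSDARG00000020746) was at 52.2 RPM in *gata2a*+ *runx1*+ cells, against 1.83 RPM in *gata2a*- *runx1*+ cells, 28.6-fold higher (17.1 to 51.5), and a gene listed under the human symbol *GFI1* (ENSDARG00000044457) was at 105 RPM in *gata2a*+ *runx1*+ cells, against 9.51 RPM in *gata2a*- *runx1*+ cells, 11.1-fold higher (8.79 to 14.2). Their relative *gfi1b* (ENSDARG00000079947), which represses genes in red cell and thrombocyte precursors, went the other way, with no read in *gata2a*+ *runx1*+ cells, with 10.97 RPM in *gata2a*- *runx1*+ cells. Set against the floor of 3 reads, *gfi1b* was 29.7-fold lower.

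Genes of the Ikaros and MEIS families in this list were also higher. *ikzf2* (ENSDARG00000069111), which encodes the Ikaros family factor Helios, was at 33.97 RPM in *gata2a*+ *runx1*+ cells, against 0.97 RPM in *gata2a*- *runx1*+ cells, 34.8-fold higher (17.4 to 81.5). *ikzf1* (ENSDARG00000013539), Ikaros itself, was at 506 RPM in *gata2a*+ *runx1*+ cells, against 225 RPM in *gata2a*- *runx1*+ cells, 2.25-fold higher (2.13 to 2.38). Of the homeobox genes, *MEIS2* (ENSDARG00000098240) had 39.3 RPM in *gata2a*+ *runx1*+ cells, against 1.34 RPM in *gata2a*- *runx1*+ cells, 29.3-fold higher (16.2 to 59.3). *meis1b* (ENSDARG00000012078), the form tied to HSCs in mammals, had 461 RPM in *gata2a*+ *runx1*+ cells, against 209.6 RPM in *gata2a*- *runx1*+ cells, and its ratio was much closer to the 2-fold limit. *runx1t1* (ENSDARG00000003680), a corepressor, was at 84.3 RPM in *gata2a*+ *runx1*+ cells, against 26.2 RPM in *gata2a*- *runx1*+ cells, 3.22-fold higher (2.76 to 3.77). The ETS factor genes *erg* and *fli1* were also higher, *erg* at 53.9 RPM in *gata2a*+ *runx1*+ cells versus 17.4 RPM in *gata2a*- *runx1*+ cells and *fli1* at 1489 RPM in *gata2a*+ *runx1*+ cells versus 519.6 RPM in *gata2a*- *runx1*+ cells.

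Not all stem cell factors were higher. *tal1* (ENSDARG00000019930), a helix-loop-helix factor of both stem and red cells, was at 457 RPM in *gata2a*+ *runx1*+ cells, against 1187 RPM in *gata2a*- *runx1*+ cells, 2.598-fold lower (2.501 to 2.699). A gene listed as *MYC* (ENSDARG00000007241) was at 110 RPM in *gata2a*+ *runx1*+ cells, against 424 RPM in *gata2a*- *runx1*+ cells, 3.85-fold lower (3.58 to 4.15), while its relative *myca* (ENSDARG00000045695) was at 381 RPM in *gata2a*+ *runx1*+ cells, against 162 RPM in *gata2a*- *runx1*+ cells, 2.36-fold higher (2.21 to 2.52). MYC factors drive growth and ribosome production, and these copies moved in opposite directions. *myb* (ENSDARG00000053666) and *lmo2* lay near 1, with a ratio of 1.12 (0.998 to 1.25) for *myb* and 0.849 (0.7896 to 0.912) for *lmo2*. *sox4a*, at 241 RPM in *gata2a*+ *runx1*+ cells versus 408 RPM in *gata2a*- *runx1*+ cells, did not reach 2-fold. Of this list, *mecom* and *NKX2-3* were listed at 0 in both libraries.

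**Figure D2:**
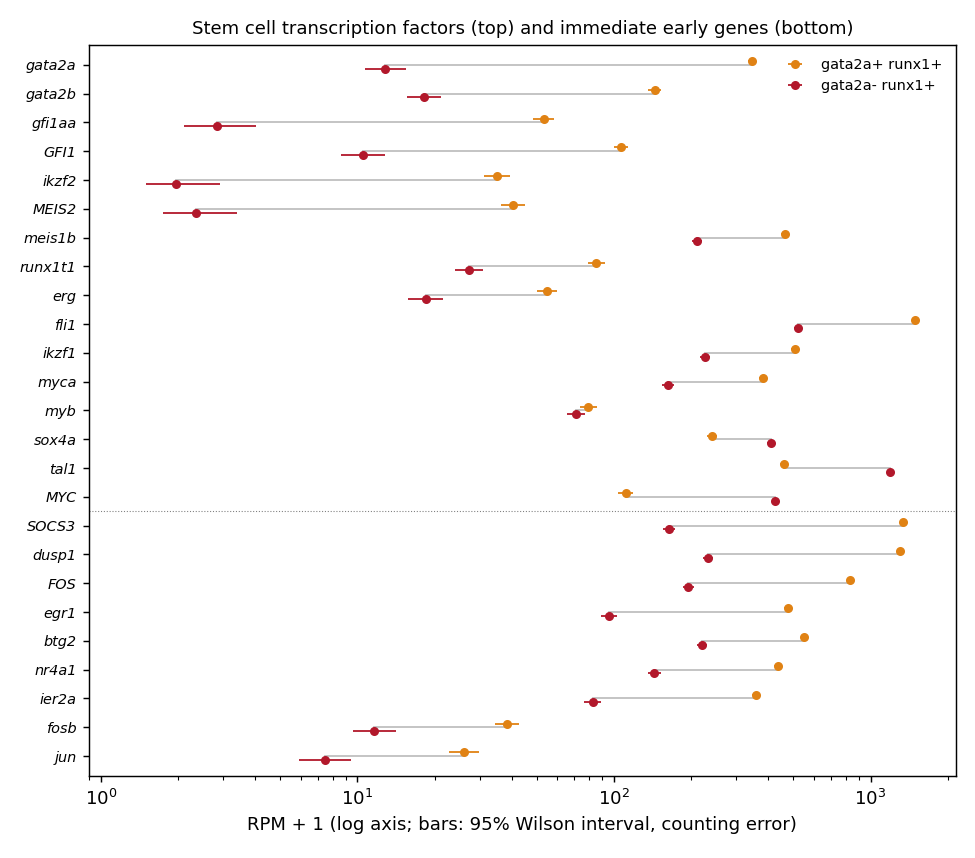
RPM + 1 on a log axis for stem and progenitor transcription factor genes and immediate early genes, orange for *gata2a*+ *runx1*+ cells and red for *gata2a*- *runx1*+ cells, with 95% Wilson intervals of the counting error. The intervals of the 2 libraries overlap for *myb* (78.5 RPM in *gata2a*+ *runx1*+ cells versus 70.2 RPM in *gata2a*- *runx1*+ cells) and for no other gene plotted, and *sox4a*, *tal1* and *MYC* are the 3 with the red point to the right.

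Among receptors and surface proteins of stem and progenitor cells, 7 of 18 genes (38.9%) were higher, 4 (22.2%) were lower, and the median log2 ratio was 0.75. Over all genes, these shares were 15.5% and 9.96%. Of the 18, 4 reached 5 RPM in *gata2a*+ *runx1*+ cells alone and 1 in *gata2a*- *runx1*+ cells alone. Among the other 13 genes, 5 were higher and 3 lower, with a median of 0.68. *cd34* (ENSDARG00000095268), a sialomucin used to sort human HSCs, was at 1700.2 RPM in *gata2a*+ *runx1*+ cells, against 501 RPM in *gata2a*- *runx1*+ cells, 3.39-fold higher (3.28 to 3.51). *cxcr4b* (ENSDARG00000041959), the receptor for the niche chemokine Cxcl12, was at 1251 RPM in *gata2a*+ *runx1*+ cells, against 412 RPM in *gata2a*- *runx1*+ cells, 3.04-fold higher (2.92 to 3.16). *csf1rb* (ENSDARG00000053624), a receptor of the macrophage growth factor, was at 486 RPM in *gata2a*+ *runx1*+ cells, against 48.01 RPM in *gata2a*- *runx1*+ cells, 10.1-fold higher (9.12 to 11.2). *cd44b* (ENSDARG00000089892), a hyaluronan receptor, was at 236 RPM in *gata2a*+ *runx1*+ cells, against 30.8 RPM in *gata2a*- *runx1*+ cells, 7.65-fold higher (6.71 to 8.76). The efflux pump gene *abcg2a* and the adhesion gene *alcamb* were higher as well, *abcg2a* at 6.03 RPM in *gata2a*+ *runx1*+ cells versus 0.73 RPM in *gata2a*- *runx1*+ cells and *alcamb* at 35.9 RPM in *gata2a*+ *runx1*+ cells versus 6.58 RPM in *gata2a*- *runx1*+ cells.

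The receptors that were lower in *gata2a*+ *runx1*+ cells included the gene for the erythropoietin receptor. *epor* (ENSDARG00000090834) was at 32.5 RPM in *gata2a*+ *runx1*+ cells, against 138 RPM in *gata2a*- *runx1*+ cells, 4.26-fold lower (3.72 to 4.88). *adgrg1* (ENSDARG00000027222), an adhesion G protein-coupled receptor also known as Gpr56 and found on mammalian HSCs, was at 64.3 RPM in *gata2a*+ *runx1*+ cells, against 178 RPM in *gata2a*- *runx1*+ cells, 2.77-fold lower (2.5 to 3.06). *itga4*, an integrin subunit that binds VCAM1, was at 3.32 RPM in *gata2a*+ *runx1*+ cells versus 10.6 RPM in *gata2a*- *runx1*+ cells. The receptor genes *kita*, *mpl* and *tek* were read in both libraries and did not reach 2-fold by the ratio of RPM + 1. Their log2 ratios were 0.67 for *kita*, 0.82 for *mpl* and 0.56 for *tek*. By RPM alone, *mpl* stood at a ratio of 2.02 (1.21 to 3.45), from 48 reads in *gata2a*+ *runx1*+ and 24 reads in *gata2a*- *runx1*+ cells. *flt3* was at 1 read in each library.

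Immediate early genes, which are switched on within minutes by growth factors, stress and handling, were higher as a group. Of 35 genes, 19 (54.3%) were higher and 0 were lower, with a median log2 ratio of 1.11, and 33 of the 35 had a ratio above 0. Over all genes, 15.5% were higher and 9.96% lower. *dusp1* (ENSDARG00000100515), a phosphatase that turns off MAP kinases, was at 1299.8 RPM in *gata2a*+ *runx1*+ cells, against 231 RPM in *gata2a*- *runx1*+ cells, 5.64-fold higher (5.37 to 5.92). *FOS* (ENSDARG00000031683) was at 829 RPM in *gata2a*+ *runx1*+ cells, against 194 RPM in *gata2a*- *runx1*+ cells, 4.28-fold higher (4.05 to 4.52), and both genes listed as *JUNB*, its partners in AP-1, were also past 2-fold. *egr1* (ENSDARG00000037421) was at 475 RPM in *gata2a*+ *runx1*+ cells, against 94.8 RPM in *gata2a*- *runx1*+ cells, 5.01-fold higher (4.64 to 5.42). *ier2a* (ENSDARG00000099195) was at 358 RPM in *gata2a*+ *runx1*+ cells, against 81.7 RPM in *gata2a*- *runx1*+ cells, and *nr4a1* (ENSDARG00000000796), an orphan nuclear receptor, was at 435 RPM in *gata2a*+ *runx1*+ cells, against 143 RPM in *gata2a*- *runx1*+ cells. The gene with the largest ratio of the list was *SOCS3* (ENSDARG00000025428), an inhibitor of cytokine signalling, at 1339 RPM in *gata2a*+ *runx1*+ cells, against 163 RPM in *gata2a*- *runx1*+ cells, 8.22-fold higher (7.77 to 8.71). A second gene listed as *SOCS3* (ENSDARG00000026611) did not reach 2-fold, with a log2 ratio of 0.61. Only *atf3* and *nr4a3* had ratios under 0, with log2 ratios of -0.93 for *atf3* and -0.05 for *nr4a3*.

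A list of genes that respond to glucocorticoids, put together after the values were seen, held 12 genes, of which 7 (58.3%) were higher and 0 lower, beside 15.5% and 9.96% over all genes. Its share describes the genes picked, and a response to glucocorticoids was not tested. *ddit4* (ENSDARG00000037618), an inhibitor of the growth kinase TORC1, was at 980.2 RPM in *gata2a*+ *runx1*+ cells, against 129 RPM in *gata2a*- *runx1*+ cells, 7.61-fold higher (7.14 to 8.12). *fkbp5* (ENSDARG00000028396), a co-chaperone of the glucocorticoid receptor, was at 1518 RPM in *gata2a*+ *runx1*+ cells, against 520.5 RPM in *gata2a*- *runx1*+ cells, 2.92-fold higher (2.82 to 3.02). *tsc22d3* (ENSDARG00000075666), also known as GILZ, was at 375 RPM in *gata2a*+ *runx1*+ cells, against 129.5 RPM in *gata2a*- *runx1*+ cells. *sgk1* did not share this, at 93.1 RPM in *gata2a*+ *runx1*+ cells versus 112 RPM in *gata2a*- *runx1*+ cells, and *dusp1* and *cebpb* are also in other lists here.

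Red cell genes were mostly lower in *gata2a*+ *runx1*+ cells. Of 16 genes of the red cell membrane and of other red cell proteins, 12 (75%) were lower and 0 higher, with a median log2 ratio of -2.54. Over all genes, 9.96% were lower and 15.5% higher. Of the 16, 4 reached 5 RPM in *gata2a*- *runx1*+ cells alone, so that the limit fixed their direction. Among the 12 that did so in both libraries, 8 were lower and 0 higher, with a median of -2.37. *SLC4A1* (ENSDARG00000012881), band 3, the anion exchanger of the red cell membrane, was at 267 RPM in *gata2a*+ *runx1*+ cells, against 2463 RPM in *gata2a*- *runx1*+ cells, 9.21-fold lower (8.81 to 9.63). The spectrin skeleton beneath the membrane moved with it. *sptb* (ENSDARG00000030490), beta-spectrin, was at 17.2 RPM in *gata2a*+ *runx1*+ cells, against 210.3 RPM in *gata2a*- *runx1*+ cells, 12.2-fold lower (10.3 to 14.6). *epb41b* (ENSDARG00000029019), protein 4.1, was at 6.03 RPM in *gata2a*+ *runx1*+ cells, against 162 RPM in *gata2a*- *runx1*+ cells, 26.9-fold lower (20.2 to 36.5). *add2* (ENSDARG00000074581), beta-adducin, which caps actin at spectrin junctions, was at 2.22 RPM in *gata2a*+ *runx1*+ cells, against 73.6 RPM in *gata2a*- *runx1*+ cells, 33.2-fold lower (20.8 to 56.4). *rhag* (ENSDARG00000019253), of the Rh complex, was at 42.5 RPM in *gata2a*+ *runx1*+ cells, against 279 RPM in *gata2a*- *runx1*+ cells, and *hemgn* (ENSDARG00000096667), a nuclear regulator of red cell genes, was at 15.6 RPM in *gata2a*+ *runx1*+ cells, against 164 RPM in *gata2a*- *runx1*+ cells. A gene listed as *RHCE* (ENSDARG00000002194), of the Rh blood group family, was at 2.95 RPM in *gata2a*+ *runx1*+ cells, against 77.9 RPM in *gata2a*- *runx1*+ cells, 26.4-fold lower (17.6 to 41.4). The list was not uniform, since *cahz*, carbonic anhydrase, and *add1*, alpha-adducin, had ratios above 0, *cahz* at 34.96 RPM in *gata2a*+ *runx1*+ cells versus 24.1 RPM in *gata2a*- *runx1*+ cells and *add1* at 54.9 RPM in *gata2a*+ *runx1*+ cells versus 49.96 RPM in *gata2a*- *runx1*+ cells.

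Heme synthesis and iron genes were lower in the same way. Of 22 genes, 15 (68.2%) were lower and 0 higher, the median log2 ratio was -1.29, and all 22 had a ratio below 0. Over all genes, 9.96% were lower. Of the 22, 3 reached 5 RPM in *gata2a*- *runx1*+ cells alone. Among the other 19 genes, 12 were lower and 0 higher, with a median of -1.25. *urod* (ENSDARG00000006818), uroporphyrinogen decarboxylase, was at 56.6 RPM in *gata2a*+ *runx1*+ cells, against 296 RPM in *gata2a*- *runx1*+ cells, 5.24-fold lower (4.74 to 5.797). *uros* and *alad*, further enzymes of heme synthesis, were at 26.7 RPM in *gata2a*+ *runx1*+ cells versus 107 RPM in *gata2a*- *runx1*+ cells for *uros* and 55.4 RPM in *gata2a*+ *runx1*+ cells versus 205 RPM in *gata2a*- *runx1*+ cells for *alad*. The first enzyme has a form used by all cells and a form of red cells. *alas1*, the form used by all cells, was near equal at 334 RPM in *gata2a*+ *runx1*+ cells versus 364 RPM in *gata2a*- *runx1*+ cells, and *alas2*, the red cell form, was listed at 0 in both libraries. Of the iron genes, *slc11a2* (ENSDARG00000024295), the iron transporter DMT1, was at 124 RPM in *gata2a*+ *runx1*+ cells, against 517 RPM in *gata2a*- *runx1*+ cells, 4.17-fold lower (3.89 to 4.47), and *fth1a* (ENSDARG00000015551), ferritin heavy chain, was at 492 RPM in *gata2a*+ *runx1*+ cells, against 2286 RPM in *gata2a*- *runx1*+ cells, 4.65-fold lower (4.49 to 4.81). A further gene, listed as *FTH1* (ENSDARG00000007975), did not reach 2-fold, with a log2 ratio of -0.12.

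The red cell transcription factors were split. Of 13 genes, 5 (38.5%) were lower and 2 (15.4%) higher, with a median log2 ratio of -0.28. The share higher was near the 15.5% over all genes, of which 9.96% were lower. Of the 13, 2 reached 5 RPM in *gata2a*- *runx1*+ cells alone, *gata1a* and *gfi1b*, so that the limit fixed their direction. Among the other 11 genes, 3 were lower and 2 higher, with a median of -0.24. Over all genes with 5 RPM in both, 6% were lower and 9.38% higher. *klf1* (ENSDARG00000017400), which turns on globin and membrane genes, was at 14.2 RPM in *gata2a*+ *runx1*+ cells, against 159.8 RPM in *gata2a*- *runx1*+ cells, 11.3-fold lower (9.32 to 13.8). *klf17* (ENSDARG00000038792), a zebrafish factor of early red cells, was at 29.2 RPM in *gata2a*+ *runx1*+ cells, against 147 RPM in *gata2a*- *runx1*+ cells, 5.03-fold lower (4.37 to 5.81). *gata1a* (ENSDARG00000013477) stood at 4.92 RPM in *gata2a*+ *runx1*+ cells, against 39.97 RPM in *gata2a*- *runx1*+ cells, 8.12-fold lower (5.83 to 11.6). The cofactor genes *zfpm1* and *lmo2* did not reach 2-fold, with log2 ratios of 0.06 for *zfpm1* and -0.24 for *lmo2*. *BCL11A* (ENSDARG00000061352), a repressor of embryonic globins, was at 87.8 RPM in *gata2a*+ *runx1*+ cells, against 25.4 RPM in *gata2a*- *runx1*+ cells, 3.46-fold higher (2.96 to 4.06), and *nfe2* (ENSDARG00000020606), a factor of thrombocyte maturation, was at 114 RPM in *gata2a*+ *runx1*+ cells, against 53.6 RPM in *gata2a*- *runx1*+ cells, 2.12-fold higher (1.89 to 2.38).

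Globin transcripts were rare in both libraries, the highest of those found at 61.4 RPM. *hbaa1* (ENSDARG00000097011) was at 5.42 RPM in *gata2a*+ *runx1*+ cells, against 61.4 RPM in *gata2a*- *runx1*+ cells, 11.3-fold lower (8.32 to 15.8), and *hbaa2* (ENSDARG00000069735) was at 1.97 RPM in *gata2a*+ *runx1*+ cells, against 14.5 RPM in *gata2a*- *runx1*+ cells, 7.36-fold lower (4.35 to 13.3). Only 7 of the 14 globin symbols were found, and the beta globins stand under the human symbol *HBE1*. Of the 7 genes listed as *HBE1*, a set picked after the values were seen, 3 reached the limit, all through *gata2a*- *runx1*+ cells alone, so that the limit fixed their direction, with a summed level of 6.41 RPM in *gata2a*+ *runx1*+ cells, with 74.6 RPM in *gata2a*- *runx1*+ cells. These globins are near-identical copies, and how reads with several matches were counted is not given in the sources used here.

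**Figure D3:**
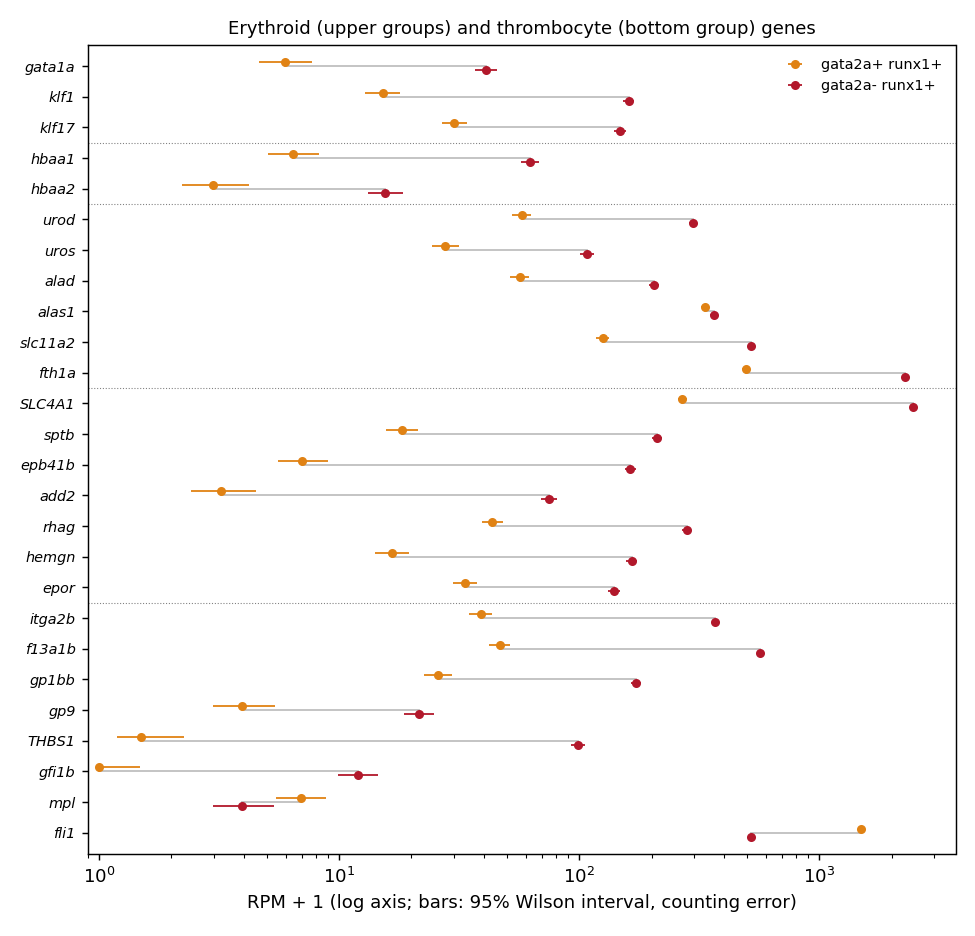
RPM + 1 on a log axis for red cell genes (transcription factors, globins, heme and iron, membrane) and thrombocyte genes, orange for *gata2a*+ *runx1*+ cells and red for *gata2a*- *runx1*+ cells, with 95% Wilson intervals. The red point lies to the right for all genes but *mpl* (5.91 RPM in *gata2a*+ *runx1*+ cells versus 2.92 RPM in *gata2a*- *runx1*+ cells) and *fli1*, and *alas1* has its 2 points closest together.

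Thrombocyte genes went in both directions. Of 21 genes, 10 (47.6%) were lower and 4 (19%) higher, with a median log2 ratio of -0.60, beside 9.96% and 15.5% over all genes. The share higher was near that over all genes. Of the 21, 2 reached 5 RPM in *gata2a*+ *runx1*+ cells alone and 4 in *gata2a*- *runx1*+ cells alone, *THBS1*, *gp9* and *tubb1* among the latter. The limit fixed the direction of these genes. When a gene had to reach 5 RPM in both libraries, 15 genes were left, 6 of them lower and 4 higher, and the median was 0.06. Over all genes with 5 RPM in both, 6% were lower and 9.38% higher. *itga2b* (ENSDARG00000018687), the integrin subunit CD41, was at 37.8 RPM in *gata2a*+ *runx1*+ cells, against 368 RPM in *gata2a*- *runx1*+ cells, 9.73-fold lower (8.65 to 10.97). *gp1bb* (ENSDARG00000074441) and *gp9* (ENSDARG00000090638), parts of the receptor for von Willebrand factor, were at 24.7 RPM in *gata2a*+ *runx1*+ cells versus 171 RPM in *gata2a*- *runx1*+ cells for *gp1bb* and 2.95 RPM in *gata2a*+ *runx1*+ cells versus 20.5 RPM in *gata2a*- *runx1*+ cells for *gp9*. *f13a1b* (ENSDARG00000036893), the subunit of clotting factor XIII, was at 45.7 RPM in *gata2a*+ *runx1*+ cells, against 564 RPM in *gata2a*- *runx1*+ cells, 12.4-fold lower (11.1 to 13.8). *THBS1* (ENSDARG00000010785), thrombospondin, released from platelet granules in mammals, had the lowest ratio of all genes, at 0.49 RPM in *gata2a*+ *runx1*+ cells, against 97.98 RPM in *gata2a*- *runx1*+ cells, 199-fold lower (77.4 to 732). *tubb1* (ENSDARG00000053066), the beta-tubulin of mammalian platelets, was at 1.48 RPM in *gata2a*+ *runx1*+ cells, against 21.4 RPM in *gata2a*- *runx1*+ cells. The 4 higher genes were *fli1*, *nfe2*, *RASGRP2* (ENSDARG00000062328) and *clec14a*. A second gene listed as *RASGRP2* (ENSDARG00000099092) stayed under the limit of 5 RPM and went the other way. It stood at 1.6 RPM in *gata2a*+ *runx1*+ cells versus 4.39 RPM in *gata2a*- *runx1*+ cells. *clec14a*, known in mammals from endothelium, was at 80.1 RPM in *gata2a*+ *runx1*+ cells, against 13.3 RPM in *gata2a*- *runx1*+ cells, 6.03-fold higher (4.92 to 7.46).

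Myeloid genes were mostly higher in *gata2a*+ *runx1*+ cells, although the gate left out granulocytic cells. Of 20 macrophage and dendritic cell genes, 14 (70%) were higher and 0 lower, with a median log2 ratio of 1.88, beside 15.5% and 9.96% over all genes. Of the 20, 8 reached 5 RPM in *gata2a*+ *runx1*+ cells alone, and among the 12 that did so in both libraries 6 were higher and 0 lower, with a median of 1.00. The limit fixed the direction of the 8. Of the 8, 6 were copies of *mfap4*, the family used to mark zebrafish macrophages. The list held the symbol *mfap4*, and each copy found under it was counted as a gene. All 6 copies are among the 14 higher genes. *mfap4.8* (ENSDARG00000093877) was at 514 RPM in *gata2a*+ *runx1*+ cells, against 4.14 RPM in *gata2a*- *runx1*+ cells, 124-fold higher (88.7 to 179). The copy *mfap4.6* was at 47.1 RPM and *mfap4.9* at 10.7 RPM in *gata2a*+ *runx1*+ cells, with no read of either in *gata2a*- *runx1*+ cells. Over the 15 genes of the family found, the summed level was 869 RPM in *gata2a*+ *runx1*+ cells, with 8.41 RPM in *gata2a*- *runx1*+ cells. Reads of such copies could be split by the counting.

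Other macrophage genes did not all move with *mfap4*. *cd74a* (ENSDARG00000009087) and *cd74b* (ENSDARG00000036628), the invariant chain of antigen presentation, were at 1366 RPM in *gata2a*+ *runx1*+ cells versus 344 RPM in *gata2a*- *runx1*+ cells for *cd74a* and 427 RPM in *gata2a*+ *runx1*+ cells versus 125 RPM in *gata2a*- *runx1*+ cells for *cd74b*. *marco* (ENSDARG00000059294), a scavenger receptor, was at 16.99 RPM in *gata2a*+ *runx1*+ cells, against 3.53 RPM in *gata2a*- *runx1*+ cells, 4.81-fold higher (3.203 to 7.44). It reached 5 RPM in *gata2a*+ *runx1*+ cells alone, so that the limit fixed its direction. *mrc1b* (ENSDARG00000038822), which stands under a mannose receptor symbol, was at 1731 RPM in *gata2a*+ *runx1*+ cells, against 86.7 RPM in *gata2a*- *runx1*+ cells, 19.98-fold higher (18.5 to 21.6). Of the transcription factor genes of this list, *zbtb46*, a factor of dendritic cells, was past 2-fold at 11.9 RPM in *gata2a*+ *runx1*+ cells versus 3.53 RPM in *gata2a*- *runx1*+ cells. The limit fixed the direction of *zbtb46* in the same way. Transcription factor genes that did not reach 2-fold included *irf8* at 20.1 RPM in *gata2a*+ *runx1*+ cells versus 20.4 RPM in *gata2a*- *runx1*+ cells, *spi1a* at 27.3 RPM in *gata2a*+ *runx1*+ cells versus 21.1 RPM in *gata2a*- *runx1*+ cells and *spi1b*, the gene of PU.1, at 55.8 RPM in *gata2a*+ *runx1*+ cells versus 91.4 RPM in *gata2a*- *runx1*+ cells. The complement genes of mature macrophages, *c1qa*, *c1qb* and *c1qc*, had 3 reads or fewer in each library. The part of macrophages in the sorted cells was not tested.

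Of 16 neutrophil genes, 9 (56.2%) were higher and 1 (6.25%) lower, with a median log2 ratio of 1.31, beside 15.5% and 9.96% over all genes. Of the 16, 3 reached 5 RPM in *gata2a*+ *runx1*+ cells alone. Among the other 13 genes, 7 were higher and 1 lower, with a median of 1.17. The higher genes included those of C/EBP factors, which act in granulocyte and macrophage development. *cebpa* (ENSDARG00000036074) was at 1059.5 RPM in *gata2a*+ *runx1*+ cells, against 228 RPM in *gata2a*- *runx1*+ cells, 4.64-fold higher (4.41 to 4.88), and *cebpb* (ENSDARG00000042725) was at 733 RPM in *gata2a*+ *runx1*+ cells, against 97.98 RPM in *gata2a*- *runx1*+ cells, 7.48-fold higher (6.95 to 8.06). Subunits of the phagocyte oxidase were higher too, with *ncf1* at 119 RPM in *gata2a*+ *runx1*+ cells versus 43.3 RPM in *gata2a*- *runx1*+ cells and *cyba* at 134 RPM in *gata2a*+ *runx1*+ cells versus 44.6 RPM in *gata2a*- *runx1*+ cells. The granule genes *mpx* and *npsn* had ratios below 1, and *mpx* was past 2-fold. *mpx* (ENSDARG00000019521), myeloperoxidase, was at 106 RPM in *gata2a*+ *runx1*+ cells, against 214 RPM in *gata2a*- *runx1*+ cells, 2.02-fold lower (1.86 to 2.197), and *npsn*, a granule protease, was at 183 RPM in *gata2a*+ *runx1*+ cells versus 292 RPM in *gata2a*- *runx1*+ cells. *lyz*, lysozyme, had 1 read in *gata2a*+ *runx1*+ and 4 reads in *gata2a*- *runx1*+ cells.

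Eosinophils and mast cells of zebrafish express GATA2, so their genes bear on a sort by *gata2a:GFP*. Of 8 genes found, 4 reached the limit, and 3 of these (75%) were higher and 0 lower, beside 15.5% and 9.96% over all genes. The sorted *gata2a* is among the 3. *eslec* (ENSDARG00000079043) was at 53.1 RPM in *gata2a*+ *runx1*+ cells with no read in *gata2a*- *runx1*+ cells. Set against the floor of 3 reads, *eslec* was 145-fold higher. *alox12* (ENSDARG00000069463), a lipoxygenase, was at 17.5 RPM in *gata2a*+ *runx1*+ cells, against 2.44 RPM in *gata2a*- *runx1*+ cells. *epx* was at 1.48 RPM in *gata2a*+ *runx1*+ cells with no read in *gata2a*- *runx1*+ cells, and *hdc*, histidine decarboxylase of mast cells, was listed at 0 in both libraries. Apart from *gata2a*, the 3 genes that reached the limit did so through *gata2a*+ *runx1*+ cells alone, so that the limit fixed their direction. Without *gata2a* the summed level of the list was 82.7 RPM in *gata2a*+ *runx1*+ cells, with 9.14 RPM in *gata2a*- *runx1*+ cells, and the part of such cells was not tested.

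Lymphoid, endothelial and kidney genes were few. Of 9 B cell genes that reached the limit, 4 (44.4%) were higher and 0 lower, beside 15.5% and 9.96% over all genes. Of the 9, 3 reached 5 RPM in *gata2a*+ *runx1*+ cells alone, and among the other 6 genes 3 were higher. The largest ratio was that of *ighm*, at 64.9 RPM in *gata2a*+ *runx1*+ cells versus 11.2 RPM in *gata2a*- *runx1*+ cells. The defining *pax5* and *rag1* were listed at 0 in both libraries. Of the 4 T and NK cell genes, 1 was higher and 1 lower, and *lck*, *cd8a* and *cd4-1* were listed at 0 in both libraries. The lower gene was *EOMES* at 27.8 RPM in *gata2a*+ *runx1*+ cells versus 89.1 RPM in *gata2a*- *runx1*+ cells. None of 18 endothelial genes reached the limit, and their summed level was 12.1 RPM in *gata2a*+ *runx1*+ cells, with 4.51 RPM in *gata2a*- *runx1*+ cells. Of the kidney genes, *slc12a3*, *cdh17* and *epcam* were listed at 0 in both libraries. Of the 5 that reached the limit, 1 was higher and 3 were lower, with a median log2 ratio of -1.07, and with 5 RPM in both libraries 3 genes were left, 1 of them higher and 1 lower, with a median of -0.07. The higher gene was *krt8*, a keratin not limited to kidney, at 519 RPM in *gata2a*+ *runx1*+ cells versus 201 RPM in *gata2a*- *runx1*+ cells. The lower genes were *podxl*, *slc26a1* and a gene listed as *SLC20A1* (ENSDARG00000020114), with log2 ratios of -2.82 for *podxl*, -1.07 for *slc26a1* and -3.27 for *SLC20A1*. A second gene listed as *SLC20A1* (ENSDARG00000010641) did not reach 2-fold, with a log2 ratio of -0.07.

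**Figure D4:**
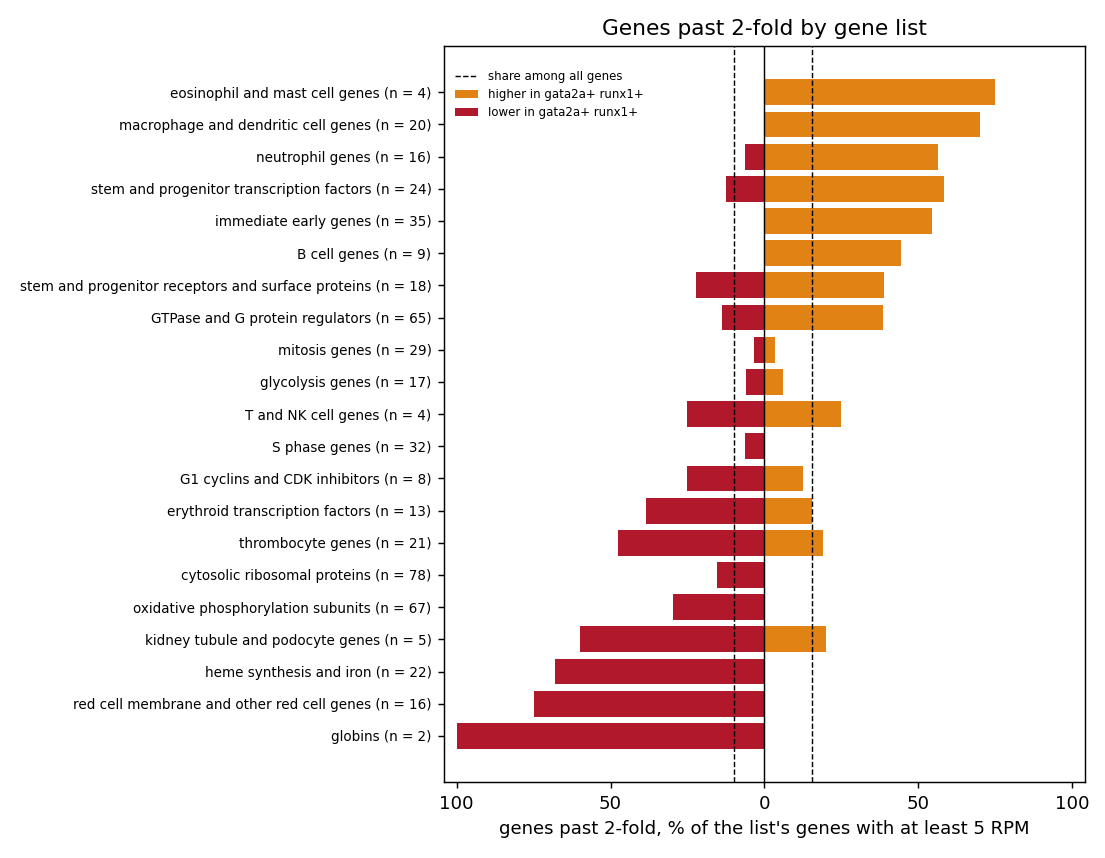
Share of each list's genes, among those with at least 5 RPM in either library, that were past 2-fold, higher in *gata2a*+ *runx1*+ cells to the right and lower to the left. Dashed lines mark the 15.5% and 9.96% over all 8925 genes, and lists run by their median log2 ratio from the mast cell, macrophage and neutrophil lists at the top to heme, red cell and globin lists at the bottom.

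The largest ratios of all belonged to genes with few or no reads in *gata2a*- *runx1*+ cells. *c3a.4* (ENSDARG00000093198), a copy of complement component C3, had 4666 reads in *gata2a*+ *runx1*+ and 2 reads in *gata2a*- *runx1*+ cells, at 574 RPM in *gata2a*+ *runx1*+ cells versus 0.24 RPM in *gata2a*- *runx1*+ cells, a ratio of 2357 (652 to 19465). *cfh* (ENSDARG00000100442), complement factor H, was at 142 RPM in *gata2a*+ *runx1*+ cells, against 2.92 RPM in *gata2a*- *runx1*+ cells, 48.4-fold higher (32.4 to 75.9), and *c3a.5*, another C3 copy, was at 28.9 RPM in *gata2a*+ *runx1*+ cells with no read in *gata2a*- *runx1*+ cells. These complement genes are mostly known from liver. Of 24 complement genes found, a list made after the values were seen, 4 reached the limit. Of these, 3 did so through *gata2a*+ *runx1*+ cells alone, so that the limit fixed their direction. Over all genes, 980 of 8925 entered that way. *c4*, *c5* and *cfb* were listed at 0 in both libraries. *TIMP4* (ENSDARG00000102617), a protease inhibitor, was at 161 RPM in *gata2a*+ *runx1*+ cells, against 2.07 RPM in *gata2a*- *runx1*+ cells, and *itln1* (ENSDARG00000007534), an intelectin, was at 71.5 RPM in *gata2a*+ *runx1*+ cells, against 0.24 RPM in *gata2a*- *runx1*+ cells. *nanos1* (ENSDARG00000109337), an RNA-binding repressor known from germ cells, was at 1502 RPM in *gata2a*+ *runx1*+ cells, against 42.8 RPM in *gata2a*- *runx1*+ cells, 35.1-fold higher (31.6 to 39.1). *EEF1A1* (ENSDARG00000039502), a copy of an elongation factor with far more abundant relatives, had 463 reads in *gata2a*+ *runx1*+ and none in *gata2a*- *runx1*+ cells. The named genes *teni.1* and *cst14b.2*, and 4 with clone-based names, were also among the 20 with the largest ratio.

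Many genes of the secretory pathway were higher alongside. *agr2* (ENSDARG00000070480), a protein disulfide isomerase of mucus-secreting cells, was at 176 RPM in *gata2a*+ *runx1*+ cells with no read in *gata2a*- *runx1*+ cells, at least 480.1-fold higher. Of 41 genes of the endoplasmic reticulum (ER), a list made after the values were seen, 24 (58.5%) were higher and 1 (2.44%) lower, with a median log2 ratio of 1.32. Over all genes, 15.5% were higher and 9.96% lower. Of the 41, 6 reached 5 RPM in *gata2a*+ *runx1*+ cells alone and 1 in *gata2a*- *runx1*+ cells alone. Among the other 34 genes, 18 were higher and 0 lower, with a median of 1.11. Because the list was made with the values known, these shares describe the genes picked and are no test of the pathway. *hspa5* (ENSDARG00000103846), the ER chaperone BiP, was at 1518 RPM in *gata2a*+ *runx1*+ cells, against 307 RPM in *gata2a*- *runx1*+ cells, 4.95-fold higher (4.74 to 5.17). *pdia4* (ENSDARG00000018491), a disulfide isomerase, was at 622 RPM in *gata2a*+ *runx1*+ cells, against 108 RPM in *gata2a*- *runx1*+ cells, 5.75-fold higher (5.35 to 6.18), and *pdia2* was at 478 RPM in *gata2a*+ *runx1*+ cells versus 31.1 RPM in *gata2a*- *runx1*+ cells. *xbp1* (ENSDARG00000035622), the transcription factor of the unfolded protein response, was at 738 RPM in *gata2a*+ *runx1*+ cells, against 164 RPM in *gata2a*- *runx1*+ cells, 4.502-fold higher (4.24 to 4.78). *creb3l1* (ENSDARG00000015793), a factor of secretory cells, was at 23.02 RPM in *gata2a*+ *runx1*+ cells with no read in *gata2a*- *runx1*+ cells. The translocon gene *sec61b*, *ppib* and a further disulfide isomerase gene, *pdia5*, did not reach 2-fold. The lower gene was *DNAJB9* at 2.46 RPM in *gata2a*+ *runx1*+ cells versus 11.5 RPM in *gata2a*- *runx1*+ cells.

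**Figure D5:**
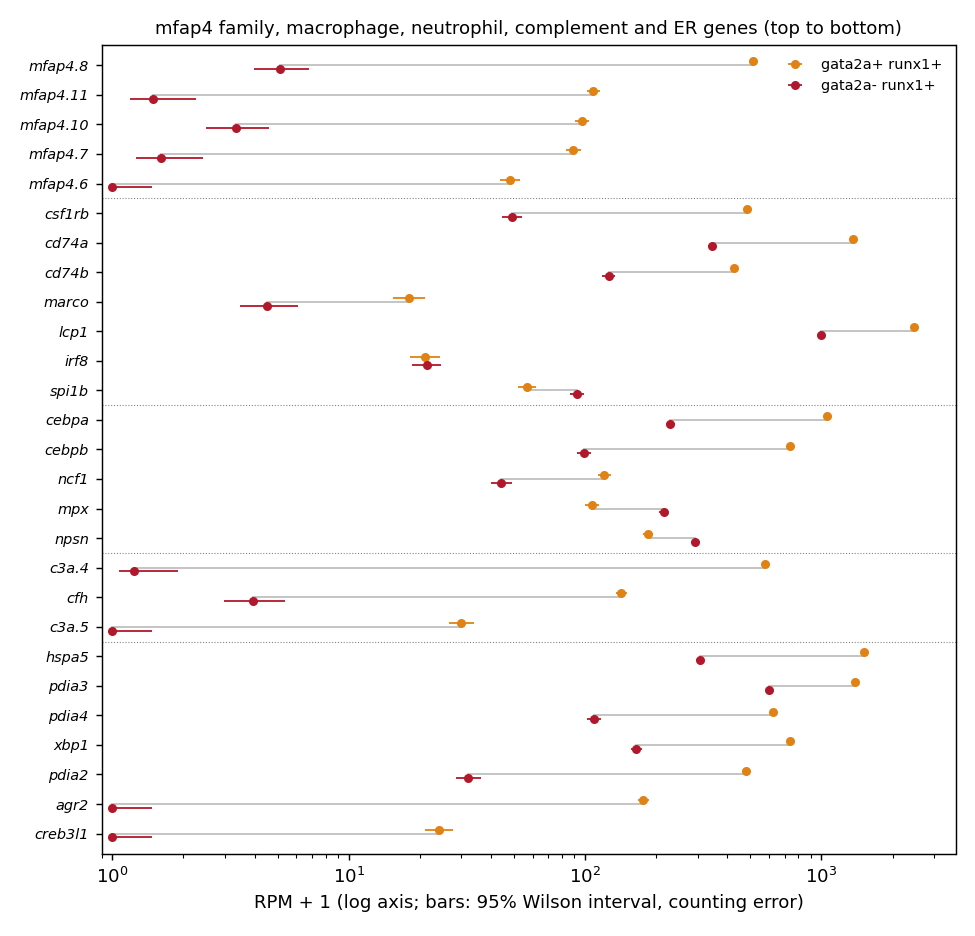
RPM + 1 on a log axis for *mfap4* copies, macrophage, neutrophil, complement and ER genes, orange for *gata2a*+ *runx1*+ cells and red for *gata2a*- *runx1*+ cells, with 95% Wilson intervals. The orange point lies to the right for all genes but *irf8*, *spi1b*, *mpx* and *npsn*, and *mfap4.6*, *c3a.5*, *agr2* and *creb3l1* have no read in *gata2a*- *runx1*+ cells.

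Genes of the cell cycle differed little. Of 32 S phase genes, 0 were higher and 2 lower, with a median log2 ratio of -0.01. *pcna*, the replication clamp, was at 1491 RPM in *gata2a*+ *runx1*+ cells versus 1366 RPM in *gata2a*- *runx1*+ cells, and the helicase genes *mcm2* and *mcm5* were at 1238 RPM in *gata2a*+ *runx1*+ cells versus 1392 RPM in *gata2a*- *runx1*+ cells for *mcm2* and 995 RPM in *gata2a*+ *runx1*+ cells versus 1008 RPM in *gata2a*- *runx1*+ cells for *mcm5*. Of 29 mitosis genes, 1 was higher and 1 lower, with a median of 0.40, and 25 of the 29 had a ratio above 0. *mki67*, which marks cycling cells, was at 428 RPM in *gata2a*+ *runx1*+ cells versus 325 RPM in *gata2a*- *runx1*+ cells, and *top2a* was at 793 RPM in *gata2a*+ *runx1*+ cells versus 496 RPM in *gata2a*- *runx1*+ cells. Both lists held a smaller share past 2-fold than the 25.4% over all genes. *plk1*, a kinase that dividing cells use, was listed at 0 in both libraries. Of 8 regulators of the entry into the cycle, 1 (12.5%) was higher and 2 (25%) lower, with a median log2 ratio of -0.20. The shares over all genes were 15.5% higher and 9.96% lower. In all, 7 of the 8 had a ratio below 0. Both lower genes reached 5 RPM in *gata2a*- *runx1*+ cells alone, so that the limit fixed their direction. Among the 6 genes with 5 RPM in both libraries, 1 was higher and 0 lower, with a median of -0.15. The higher gene, *CDKN1B*, the inhibitor p27, was at 22.5 RPM in *gata2a*+ *runx1*+ cells, against 6.22 RPM in *gata2a*- *runx1*+ cells, 3.62-fold higher (2.64 to 5.05). *cdk6* was at 3.57 RPM in *gata2a*+ *runx1*+ cells, against 11.6 RPM in *gata2a*- *runx1*+ cells, 3.24-fold lower (2.12 to 5.1), and *ccnd1* did not reach 2-fold at 362 RPM in *gata2a*+ *runx1*+ cells versus 507 RPM in *gata2a*- *runx1*+ cells.

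Cytosolic ribosomal protein genes were shifted as a block. Of 78 genes, 77 had a ratio below 0 and the median log2 ratio was -0.82, with 12 (15.4%) past 2-fold and 0 higher. Over all genes, 9.96% were lower. Their summed level was 102154 RPM in *gata2a*+ *runx1*+ cells, with 143129 RPM in *gata2a*- *runx1*+ cells. *rpl11* (ENSDARG00000043509) was at 554 RPM in *gata2a*+ *runx1*+ cells, against 1137 RPM in *gata2a*- *runx1*+ cells and *rps19* (ENSDARG00000030602) was at 264 RPM in *gata2a*+ *runx1*+ cells, against 548 RPM in *gata2a*- *runx1*+ cells, both lower. The most abundant members stood closer to 1, with *rpl3* at a ratio of 0.809 (0.802 to 0.815) and *rpl4* at 0.888 (0.8804 to 0.896). The exception was *rps27.2* at 314 RPM in *gata2a*+ *runx1*+ cells versus 274 RPM in *gata2a*- *runx1*+ cells. Many ratios sat near the limit, and the count of lower genes was 21 with TMM scaling and 19 with DESeq2 size factors.

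Subunits of oxidative phosphorylation encoded in the nucleus were lower in the same manner, 20 of 67 genes (29.9%), with 0 higher and a median log2 ratio of -0.84. Over all genes, 9.96% were lower. Of the 67, 13 reached 5 RPM in *gata2a*- *runx1*+ cells alone, so that the limit fixed their direction. Among the 54 that did so in both libraries, 14 were lower and 0 higher, with a median of -0.76. Subunits of the ATP synthase were among them, such as *atp5mc3b* (ENSDARG00000009447) at 377 RPM in *gata2a*+ *runx1*+ cells, against 835 RPM in *gata2a*- *runx1*+ cells and *atp5pd* at 46.2 RPM in *gata2a*+ *runx1*+ cells versus 130 RPM in *gata2a*- *runx1*+ cells. *sdha*, of complex II, was equal within counting error, with a ratio of 1.03 (0.985 to 1.08). Glycolysis genes did not show this shift, with 1 of 17 (5.88%) higher, 1 (5.88%) lower and a median of 0.32, beside 15.5% and 9.96% over all genes. *PKM*, pyruvate kinase, was at 919 RPM in *gata2a*+ *runx1*+ cells versus 534 RPM in *gata2a*- *runx1*+ cells, whereas *LDHB*, lactate dehydrogenase B, was at 859 RPM in *gata2a*+ *runx1*+ cells versus 1236 RPM in *gata2a*- *runx1*+ cells, neither past 2-fold.

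Cytoskeletal and matrix genes were prominent among the genes with the lowest ratios. *VCL* (ENSDARG00000044968), vinculin, which links integrins to actin, had 2 reads in *gata2a*+ *runx1*+ and 238 reads in *gata2a*- *runx1*+ cells, a ratio of 0.00849 (0.00102 to 0.031). In a list of 33 such genes, made after the values were seen, 15 (45.5%) were lower and 4 (12.1%) higher, with a median log2 ratio of -0.65. Over all genes, 9.96% were lower and 15.5% higher. Among the 24 with 5 RPM in both libraries, 8 were lower and 3 higher, with a median of -0.17. As the genes were picked with the values known, these shares are a description only. *cttn* (ENSDARG00000011777), cortactin, was at 1.85 RPM in *gata2a*+ *runx1*+ cells, against 37.9 RPM in *gata2a*- *runx1*+ cells, 20.5-fold lower (12.3 to 37.1). *CCN2* (ENSDARG00000042934), a matricellular protein, was at 5.17 RPM in *gata2a*+ *runx1*+ cells, against 109 RPM in *gata2a*- *runx1*+ cells, 21.2-fold lower (15.5 to 29.6), and *FN1* (ENSDARG00000006526), fibronectin, was at 33.4 RPM in *gata2a*+ *runx1*+ cells, against 359.9 RPM in *gata2a*- *runx1*+ cells, 10.8-fold lower (9.52 to 12.3). *lmna* (ENSDARG00000013415), lamin A, was at 5.54 RPM in *gata2a*+ *runx1*+ cells, against 71.9 RPM in *gata2a*- *runx1*+ cells. *RAC3* (ENSDARG00000090062), a small GTPase that shapes actin, was at 3.82 RPM in *gata2a*+ *runx1*+ cells, against 107 RPM in *gata2a*- *runx1*+ cells, 27.98-fold lower (19.6 to 41.4). The group had members on the other side, with *actn1*, an actinin, at 269 RPM in *gata2a*+ *runx1*+ cells versus 107 RPM in *gata2a*- *runx1*+ cells and *tln1*, talin, not past 2-fold at 637 RPM in *gata2a*+ *runx1*+ cells versus 1001 RPM in *gata2a*- *runx1*+ cells.

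Regulators of GTPases and of G proteins were more often higher. Of 65 genes with names of these families, 25 (38.5%) were higher and 9 (13.8%) lower, and the median log2 ratio was 0.58. Over all genes, 15.5% were higher and 9.96% lower. Of the 65, 11 reached 5 RPM in *gata2a*+ *runx1*+ cells alone and 6 in *gata2a*- *runx1*+ cells alone. Among the other 48 genes, 17 were higher and 4 lower, with a median of 0.47. *rasal3* (ENSDARG00000089933), a RAS GTPase-activating protein of blood cells, was at 955 RPM in *gata2a*+ *runx1*+ cells, against 196 RPM in *gata2a*- *runx1*+ cells, 4.88-fold higher (4.62 to 5.15). *ARHGAP45* (ENSDARG00000062049) was at 1035 RPM in *gata2a*+ *runx1*+ cells, against 407 RPM in *gata2a*- *runx1*+ cells, 2.55-fold higher (2.44 to 2.65), and *arhgef3l* (ENSDARG00000037554) was at 299 RPM in *gata2a*+ *runx1*+ cells, against 60.5 RPM in *gata2a*- *runx1*+ cells, 4.95-fold higher (4.49 to 5.46). A second gene listed as *ARHGAP45* (ENSDARG00000052496) fell just short of 2-fold by the ratio of RPM + 1, with a log2 ratio of 0.997. *rgs13a* (ENSDARG00000017653), of a family that shortens G protein signals, was at 235 RPM in *gata2a*+ *runx1*+ cells, against 80.4 RPM in *gata2a*- *runx1*+ cells, 2.92-fold higher (2.68 to 3.2). On the other side, *rasa3* (ENSDARG00000063371), which in mice is needed for red cells and platelets, was at 37.2 RPM in *gata2a*+ *runx1*+ cells, against 113 RPM in *gata2a*- *runx1*+ cells, 3.03-fold lower (2.66 to 3.46).

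By the difference in RPM rather than the ratio, abundant genes led. *actb2* (ENSDARG00000037870), beta-actin, was at 48421 RPM in *gata2a*+ *runx1*+ cells, against 35157 RPM in *gata2a*- *runx1*+ cells, with a ratio of 1.38 (1.37 to 1.38). *lcp1*, an actin-bundling protein of white cells, was at 2463 RPM in *gata2a*+ *runx1*+ cells, against 999 RPM in *gata2a*- *runx1*+ cells, 2.46-fold higher (2.402 to 2.53), and *TXNIP* (ENSDARG00000036107), a thioredoxin-binding protein, was at 2524 RPM in *gata2a*+ *runx1*+ cells, against 1074 RPM in *gata2a*- *runx1*+ cells, 2.35-fold higher (2.29 to 2.41). *hmga1a* (ENSDARG00000028335), a chromatin protein of dividing cells, did not reach 2-fold at 3624 RPM in *gata2a*+ *runx1*+ cells versus 2141 RPM in *gata2a*- *runx1*+ cells. Of the 10 genes with the largest fall in RPM, *SLC4A1* was past 2-fold and the other 9, all of translation but *slc25a5*, were not. The translation factor gene *eef2b* (ENSDARG00000100371) had the largest fall, at 33622 RPM in *gata2a*+ *runx1*+ cells versus 38580.1 RPM in *gata2a*- *runx1*+ cells, a ratio of 0.871 (0.867 to 0.876).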

How the data were processed

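RNA of sorted kidney cells was amplified by Quartz-Seq, an oligo-dT based method with PCR. Per the labels, the authors mapped reads to GRCz11 with HISAT2 2.1.0 and counted them with Subread 1.6.4. They deposited RPM per gene, rounded to 2 decimals. The annotation release, the use of strand and the treatment of reads with several matches are not given in the sources used here. The library of *gata2a*+ *runx1*- cells, the third of the series, was not used here.

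Whole reads were recovered from the RPM, with 100.0% of values whole within 0.0051 RPM. Of 32057 genes, 28988 had a symbol, many in human form, and RefSeq names of assembly GRCz12tu were used for names only. The log2 ratio of RPM + 1 understates the change of low genes. Folds are ratios of RPM with exact Clopper-Pearson intervals, and folds against a library without a read are taken against 3 reads. In the plots, levels carry 95% Wilson intervals. Calls rest on fold alone, because 1 library per group leaves no spread to test. A two-sided Fisher's exact test with Benjamini-Hochberg adjustment (scipy 1.17.1, statsmodels 0.14.6), a comparison of these 2 libraries rather than of populations, gave 3360 higher and 2835 lower genes at an adjusted p under 0.05.

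The genes and lists were chosen with earlier results of these data known. The named genes are the 20 with the largest and the 20 with the lowest ratio, the 10 with the largest difference in RPM each way, genes of the lists and genes of a table of the study. Some genes that this rule names are not reported here. The ER, complement, glucocorticoid, cytoskeleton, mitochondrial, growth factor, *mfap4*, *spink2* and *HBE1* lists were added after values were seen, as were the counts without *gata2a*. *rps19bp1* and *rpl7l1*, which are not ribosomal proteins, were taken out of the ribosomal list by name at the same stage. Some genes are in more than 1 list. The alternatives were other pseudocounts, minimums and fold limits, TMM factors of edgeR 4.0.16, size factors of DESeq2 1.42.0 (R 4.3.3), leaving out the 20 genes richest in reads, the counting interval and Fisher's test. The steps were tested on simulated data. Promoter motifs, which had been planned, were not analysed here.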

Additional observations from a re-analysis of the deposited data

How the results depend on the processing

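The main values were 1380 higher and 889 lower genes, and 200 genes of the lists past 2-fold. A pseudocount of 5 RPM gave 519 lower genes. A minimum of 1 RPM and no minimum each gave 2345 higher and 1435 lower genes, a minimum of 20 RPM gave 666 and 404, and 5 RPM in both libraries gave 678 and 434. A 4-fold limit gave 477 higher and 242 lower genes and 74 genes of the lists. With the counting interval beyond 2-fold as well, there were 995 higher and 560 lower genes. Fisher's exact test as a further condition left the main 1380 and 889 genes as they were. At this depth it passes any gene past 2-fold at 5 RPM, so it is no separate check. No named gene past 2-fold changed sign with another pseudocount or scaling, but this outcome was fixed in advance. A pseudocount cannot change the sign of a ratio, and the shifts by TMM and DESeq2 factors were far under 2-fold. Of 342 named genes under 2-fold, 11 changed sign with TMM factors and 9 with DESeq2 size factors. Of 298 named genes past 2-fold, 252 remained so with a pseudocount of 5 RPM, 292 with TMM factors and 294 with DESeq2 size factors. TMM factors moved all log2 ratios by -0.08 and DESeq2 size factors by -0.06, which turned the median over all genes below 0, and 55.8% and 57.2% of the genes past 2-fold were then higher, against 60.8%. The median of the S phase list changed sign with a minimum of 20 RPM, that of the thrombocyte list with 5 RPM in both libraries, and that of the T and NK cell list with each of these. Why these values moved was not tested beyond the fewer genes that a higher minimum leaves. No paired analysis was possible because each population has 1 library, and for the same reason no replicate could be left out. Amplification noise and the number of fish behind a library limit all values here, and neither can be measured with 1 library per population.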

Other observations

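Of 17 genes of secreted growth factors and chemokines, a set put together after the values were seen, 5 (29.4%) were higher in *gata2a*+ *runx1*+ cells and 9 (52.9%) lower, beside 15.5% and 9.96% over all genes. Of the 17, 9 reached 5 RPM in 1 library only, and among the other 8 genes 1 was higher and 4 lower, with a median log2 ratio of -0.57. These shares describe a set picked with the values known and are no test. *BMP7* (ENSDARG00000063230), a bone morphogenetic protein, was at 63.6 RPM in *gata2a*+ *runx1*+ cells, against 2.56 RPM in *gata2a*- *runx1*+ cells, 24.9-fold higher (16.1 to 40.5). A gene listed as *CXCL12* (ENSDARG00000037116), the ligand of Cxcr4, was at 16.6 RPM in *gata2a*+ *runx1*+ cells with no read in *gata2a*- *runx1*+ cells, and *GDF10* was at 16.4 RPM in *gata2a*+ *runx1*+ cells, also with no read in *gata2a*- *runx1*+ cells. Among the lower genes, *vegfc* (ENSDARG00000069640), a factor of lymphatic vessels, was at 2.34 RPM in *gata2a*+ *runx1*+ cells, against 57.1 RPM in *gata2a*- *runx1*+ cells, 24.4-fold lower (15.5 to 40.96). *pdgfd* (ENSDARG00000077677), a platelet-derived growth factor, was at 4.43 RPM in *gata2a*+ *runx1*+ cells, against 54.1 RPM in *gata2a*- *runx1*+ cells, 12.2-fold lower (8.69 to 17.7), and *IGFBP1* (ENSDARG00000099351), which binds insulin-like growth factors, was at 55.02 RPM in *gata2a*+ *runx1*+ cells, against 583 RPM in *gata2a*- *runx1*+ cells, 10.6-fold lower (9.62 to 11.7). A pair of genes under related names moved apart, *HBEGF* (ENSDARG00000031246) with no read in *gata2a*+ *runx1*+ cells, with 19.4 RPM in *gata2a*- *runx1*+ cells, and *hbegfa* (ENSDARG00000075121) at 19.8 RPM in *gata2a*+ *runx1*+ cells, against 5.12 RPM in *gata2a*- *runx1*+ cells.

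Of 13 genes of the mitochondrial genome, also taken after the values were seen, 2 (15.4%) were higher, a share near the 15.5% over all genes, and 0 lower, with a median log2 ratio of 0.62, against -0.84 for the nuclear subunits. *MT-CO1*, of complex IV, was at 6721 RPM in *gata2a*+ *runx1*+ cells versus 3702 RPM in *gata2a*- *runx1*+ cells, and *MT-ND4*, of complex I, was at 1921 RPM in *gata2a*+ *runx1*+ cells versus 922 RPM in *gata2a*- *runx1*+ cells. *MT-CO2* and *MT-CO3* had ratios below 1, with log2 ratios of -0.14 for *MT-CO2* and -0.09 for *MT-CO3*.

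Of 11 genes of the *spink2* family of protease inhibitors, picked after the values were seen, 8 reached 5 RPM. All of them did so in *gata2a*+ *runx1*+ cells alone, so that the limit fixed their direction. Over all genes, 980 of 8925 entered that way. The family had a read for 11 genes in *gata2a*+ *runx1*+ and for 2 genes in *gata2a*- *runx1*+ cells, beside 16352 and 15366 of all 32057 genes. Its summed level was 124.8 RPM in *gata2a*+ *runx1*+ cells, with 1.70 RPM in *gata2a*- *runx1*+ cells. *spink2.7* (ENSDARG00000102271) was at 36.2 RPM in *gata2a*+ *runx1*+ cells with no read in *gata2a*- *runx1*+ cells. Set against the floor of 3 reads, *spink2.7* was 98.99-fold higher. The copies lie under 1 family name, and reads could be shared between them.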
